A study of Mus musculus with 8 samples.

Results

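The renin-angiotensin system was followed through 9 genes in whole-kidney RNA sequencing: Ren1, Agt, Ace, Mme, Enpep, Agtr1a, Agtr1b, Mas1 and Atp6ap2. They were chosen by name as components of the system, with earlier results of these data known. All 9 were found by symbol among the 54965 genes of the table. Levels are FPKM as the authors deposited them, fragments scaled to gene length and to a size per library. The size recovered from the values was not the number of reads in genes. It was 15717260 against 17367872 reads in wild-type replicate 1, and 17987307 against 16780542 in wild-type I/R replicate 1. Of the 9 genes, 7 reached a mean of 1 FPKM over the libraries and were tested, and Mas1 and Agtr1b were not.

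The system works as a chain of cleavages. Renin, an aspartic protease released by the juxtaglomerular cells of the afferent arteriole, cuts angiotensinogen to angiotensin I, and angiotensin-converting enzyme (ACE) turns that into angiotensin II, which constricts vessels and promotes sodium retention through the type 1 receptor. Cell surface peptidases then trim or divert the peptides, aminopeptidase A towards angiotensin III and neprilysin towards angiotensin 1-7, the ligand assigned to the receptor MAS. In the kidney, angiotensinogen and much of the peptidase complement belong to the proximal tubule, so the tubule holds a local version of the system. Renin cells descend from Foxd1-expressing stromal progenitors, whereas the tubule epithelium passes through a Pax2-expressing stage.

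Kidneys came from wild-type mice and from mice labelled UtxPax2 Cre, called knockout here. In the latter Cre recombinase under Pax2 control acts on Utx, listed as Kdm6a, which lies on the X chromosome and encodes an enzyme that removes methyl groups from lysine 27 of histone H3. Each genotype was sampled 3 days after ischemia-reperfusion (I/R), a temporary arrest of the kidney's blood supply, and without it, with 2 samples in each of the 4 groups. The shared protocol names a sham operation, but no operation appears on the labels of kidneys without I/R. Strain, sex, age and further alleles are not stated. The labels give the wild-type mice no Cre transgene, so Cre itself and loss of Utx cannot be told apart. Since it is not stated which animal gave which sample, the p-values reflect sample-to-sample spread that could be technical. In whole-kidney RNA fewer cells of a type and less RNA per cell cannot be told apart.

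Reads in genes ranged from 16780542 to 18497835 per library. Kdm6a, the targeted gene, was lower in knockout in each treatment, at 1.99 and 1.91 against 2.57 and 2.94 FPKM without I/R and at 1.6 and 1.83 against 3.00 and 2.97 FPKM after it. The difference passed after I/R (-0.56 ± 0.10 on the log2 scale, adjusted p = 0.0295) and not without it (-0.35 ± 0.10, adjusted p = 0.431). All 7 kidney markers used (Lrp2, Slc34a1, Nphs1, Umod, Slc12a1, Slc12a3 and Aqp2) were present. Wild-type replicate 1 stood apart in B cell markers, whose summed level was 49.8 FPKM there and 3.56 FPKM in replicate 2, and in adipocyte markers, at 8.19 against 0.133 FPKM. Without that library the I/R calls of Ace and Enpep in wild type held (adjusted p = 0.00166 and 0.0275), and those of Ren1 and Mme did not.

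Promoters of the 3 genes that passed the test for I/R in both genotypes, Ren1, Ace and Enpep, are shown first, since they represent the start and the peptidase end of the chain. Each is the 250 bases before the RefSeq start (build GRCm38.p6), read 5′ to 3′ on the strand of the gene. The Ren1 window is chr1:133350424-133350673 on the plus strand, the Ace window chr11:105967698-105967947 on the plus strand and the Enpep window chr3:129332750-129332999 on the minus strand. Capitals mark matches on either strand to the TATA box letters TATAAA, the CCAAT box letters CCAAT and the GC box letters GGGCGG, reverse complements included.
Ren1: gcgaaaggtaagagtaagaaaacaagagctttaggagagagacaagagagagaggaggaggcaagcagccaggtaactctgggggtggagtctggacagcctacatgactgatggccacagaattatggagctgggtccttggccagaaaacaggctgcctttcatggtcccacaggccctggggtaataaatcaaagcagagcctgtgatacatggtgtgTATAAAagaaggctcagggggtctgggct
Ace: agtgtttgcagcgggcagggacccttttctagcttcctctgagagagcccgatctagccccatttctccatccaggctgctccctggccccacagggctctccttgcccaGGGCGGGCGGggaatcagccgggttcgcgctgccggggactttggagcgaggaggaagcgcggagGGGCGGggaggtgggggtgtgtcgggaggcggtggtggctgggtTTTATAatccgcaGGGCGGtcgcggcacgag
Enpep: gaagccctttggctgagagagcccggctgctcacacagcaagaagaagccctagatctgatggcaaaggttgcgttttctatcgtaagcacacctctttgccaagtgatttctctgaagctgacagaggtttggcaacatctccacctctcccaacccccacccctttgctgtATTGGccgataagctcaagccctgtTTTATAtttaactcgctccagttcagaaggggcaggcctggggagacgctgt
The Ren1 window held TATAAA 29 bases before the start, and the Ace and Enpep windows held it in the opposite orientation, 31 and 52 bases before the start. Ace also had 4 GGGCGG matches, 2 of them overlapping, where Ren1 and Enpep had 0. RefSeq windows were found for 8 of the 9 genes, Agtr1a being the exception. These 8 genes have 11 windows, of which Mme has 3 and Ace 2. TATAAA was present in at least 1 window of 5 of the 8 genes (Ren1, Agt, Ace, Agtr1b and Enpep), against 14.3% of all 27025 genes in the table. CCAAT was present in 6 of 8 against 37.5% of genes, and GGGCGG in 3 of 8 against 35.4%. The second Ace window is inside the gene, at chr11:105974939-105975188, and gene-level values do not separate transcripts from these starts. These matches describe the letters and do not show binding.

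By level per length, the system in wild-type kidney without I/R was led by peptidases and by the prorenin receptor. Ace averaged 60.8 FPKM, Enpep 48.2, Atp6ap2 45.8, Agt 31.0, Ren1 16.4, Agtr1a 13.9, Mme 13.0, Mas1 0.709 and Agtr1b 0.0576 FPKM. Neighbours in that order were apart except Enpep and Atp6ap2, and Agtr1a and Mme, whose libraries overlapped. After I/R the order changed at the top. In wild type it became Agt (45.6 FPKM), Atp6ap2, Enpep, Ace and Ren1, with Agt overlapping Atp6ap2 and Ace overlapping Ren1. In knockout it became Enpep (49.6 FPKM), Atp6ap2, Agt, Ace and Ren1, all apart. Agtr1a, Mme, Mas1 and Agtr1b kept the last 4 places in all 4 groups.

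**Figure D1:**
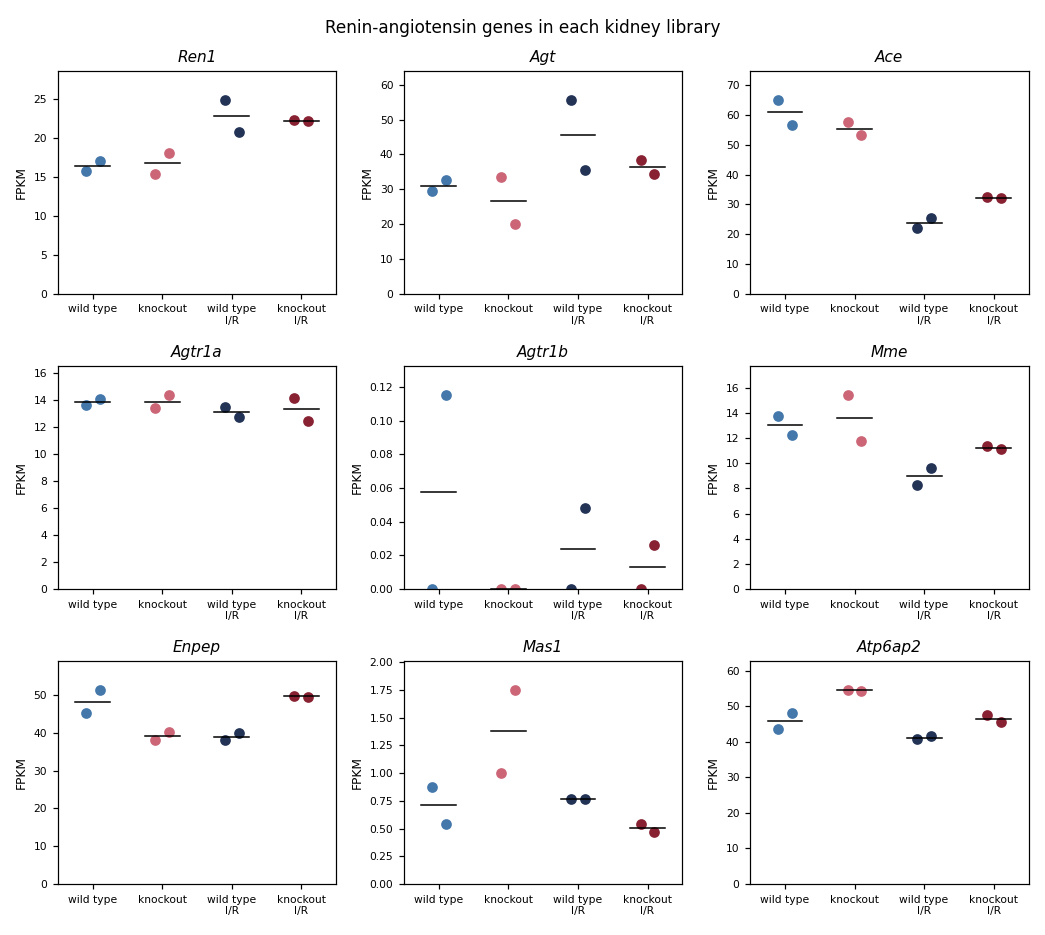
FPKM of the 9 genes in each of the 8 kidney libraries, 1 panel per gene with its own axis from 0. Points are single libraries and horizontal lines the means of 2. Ace lay between 22.2 and 32.3 FPKM in all I/R libraries and at 53.2 FPKM or more in all others.

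On the deposited scale, Ren1 and the peptidase genes moved in opposite directions with I/R at 3 days in wild type. Only the Ace call was kept in every other setting. The calls of Ren1, Mme and Enpep depended on single libraries or on settings of the fit, as given with each gene. Ren1 rose, Ace, Mme and Enpep fell, and Agt, Agtr1a and Atp6ap2 did not pass the test. Of 7 tested members 4 passed, where 37.5% of all 13304 tested genes did; 1 of 7 was higher against 17.4% of all genes and 3 of 7 lower against 20.1%. The median log2 difference of the 7 was -0.15, and that of all tested genes -0.03. In knockout 3 of 7 passed against 20.7% of all genes, with Ren1 and Enpep higher (8.95% of all genes were) and Ace lower (11.7%). There the median of the 7 was -0.06 and that of all genes -0.03. With 7 genes, these shares do not set the members apart from the broad response.

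Ren1 (ENSMUSG00000070645, chromosome 1 from 133350510 to 133360325, plus strand) encodes renin. Its level was 15.8 and 17.0 FPKM in wild type, 15.5 and 18.1 in knockout, 24.9 and 20.8 in wild type after I/R and 22.3 and 22.2 in knockout after I/R. In each genotype both I/R libraries lay above both libraries without I/R. By background, groups of 2 against 2 did not overlap for 71.9% of all tested genes for I/R in wild type, 63.6% for I/R in knockout, 38.0% for the genotypes without I/R and 58.3% for the genotypes after it. For Ren1 the genotypes overlapped without I/R, and after it the knockout libraries lay between those of wild type. Ren1 rose by 0.45 ± 0.11 (log2 ± SE) in wild type (adjusted p = 0.0181) and by 0.39 ± 0.11 in knockout (adjusted p = 0.0480). Both calls depended on single libraries, and the knockout call also on the settings of the fit. In wild type the adjusted p was 0.0901, 0.0532 and 0.0909 without wild-type replicate 1, wild-type replicate 2 and wild-type I/R replicate 1. In knockout it was 0.182, 0.167 and 0.190 without knockout replicate 1, knockout I/R replicate 1 and knockout I/R replicate 2, and 0.0727 and 0.0729 without wild-type replicate 1 or 2. The knockout call was also lost with no filter on low values (0.103) and with only the groups compared in the fit (0.0739). In an additive model over both genotypes, chosen after the values were seen, the I/R difference of Ren1 was 0.42 ± 0.08 (adjusted p = 0.00386), where 40.5% of all genes passed.

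The genotypes did not differ detectably in Ren1. Knockout against wild type gave 0.03 without I/R (95% interval -0.24 to 0.29) and -0.03 after it (-0.29 to 0.23). These intervals still allow a difference of up to about 0.29 on the log2 scale in either direction. The 3 protein-coding genes with the profile nearest to Ren1 were Camk1, Zfp462 and Dapk2, at a mean absolute difference of 0.036, 0.044 and 0.049 on the log2 scale over the 8 libraries after centring, where the median protein-coding gene stood at 0.249. The summed level of mural and mesangial markers was 29.5 to 45.3 FPKM in wild type, 39.5 to 42.5 in knockout, 89.2 to 111 in wild type after I/R and 73.7 to 79.7 in knockout after I/R. Of these 8 markers Acta2, Pdgfrb and Des (3 of 8) rose in each genotype and 0 fell. The pericyte and smooth muscle markers Rgs5 (0.01 and -0.19 in wild type and knockout) and Myh11 (-0.35 in each) did not pass, and their part in the Ren1 result was not tested.

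Agt (ENSMUSG00000031980, chromosome 8 from 124556534 to 124569706, minus strand) encodes angiotensinogen, the only known precursor of the angiotensins. It stood at 29.5 and 32.5 FPKM in wild type, 33.4 and 20.1 in knockout, 55.7 and 35.5 in wild type after I/R and 38.3 and 34.4 in knockout after I/R. In each genotype both I/R libraries lay above both libraries without I/R, but the replicates of 2 groups were far apart. Such groups did not overlap for 71.9% of all tested genes in wild type and 63.6% in knockout. The I/R difference was 0.51 ± 0.27 in wild type (adjusted p = 0.185) and 0.47 ± 0.27 in knockout (adjusted p = 0.255), and neither passed. Over both genotypes it was 0.49 ± 0.18 (adjusted p = 0.0613). Without wild-type I/R replicate 1 the wild-type difference was 0.19 (adjusted p = 0.654). Rescaling the libraries to an equal FPKM sum turned it to 0.80 (adjusted p = 0.0302), the one setting of 15 under which it passed. The genes nearest in profile, Fbp2, Misp and Birc2, lay at 0.133 to 0.137, against a median of 0.301. Markers of hepatocytes, another main source of Agt, summed to 173.8 to 239.8 FPKM in wild type and 193.0 to 226.3 in knockout. After I/R they summed to 103.2 to 103.4 FPKM in wild type and 159.9 to 188.5 in knockout. Of the 6 markers 4 were tested, and 0 rose with I/R in either genotype, while 3 fell in wild type and 1 in knockout. The part of hepatocyte RNA in the Agt values was not tested.

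Ace had the largest I/R difference of the 7 tested genes in both genotypes, on the log2(FPKM + 1) scale. Ace (ENSMUSG00000020681, chromosome 11 from 105967945 to 105989964, plus strand) encodes the converting enzyme of brush borders and endothelium. Its level was 65.1 and 56.6 FPKM in wild type and 57.5 and 53.2 in knockout, whereas after I/R wild type had 22.2 and 25.6 FPKM and knockout had 32.3 and 32.0 FPKM. The I/R libraries lay far below the others, and after I/R both knockout libraries lay above both wild-type libraries. Ace fell by 1.31 ± 0.10 in wild type (adjusted p = 1.97e-04) and by 0.76 ± 0.10 in knockout (adjusted p = 0.00434), differences exceeded in size by 4.96% and 7.63% of all tested genes. Both calls were kept in all 15 other settings, with differences from -1.41 to -1.02 in wild type and from -1.04 to -0.51 in knockout.

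The difference between genotypes in Ace after I/R was 0.42 ± 0.10 (adjusted p = 0.0589), and the difference between the I/R effects was 0.55 ± 0.14 (adjusted p = 0.136). Neither passed. At the background, 6.01% of all genes passed between genotypes after I/R and 0.286% for the difference between effects, and 0 of 7 members passed either with limma. For the difference between effects, Ace and Enpep (2 of 7) were under an unadjusted p of 0.05 against 17.3% of all genes. There limma-voom called 1 member, Enpep, and 175 of all 13304 genes. On recovered reads, limma-voom called the Ace difference between genotypes after I/R (adjusted p = 0.0239, where the settings ranged from 0.0239 to 0.624). In that comparison limma-voom called 1503 of all 13304 genes, more than limma did. Without I/R the genotypes differed in Ace by -0.13 (95% interval -0.37 to 0.11).

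Ace is known from both tubule and endothelium, so markers of both are given. Relative to the wild-type mean without I/R, Ace stood at 36.5 to 42.0% in wild type after I/R and 52.7 to 53.1% in knockout after I/R. Summed markers of the third proximal segment (S3) stood at 36.3 to 38.3% and 42.5 to 43.9%, and 5 of 6 fell in each genotype. Summed markers of the first and second segments (S1 and S2) stood at 52.1 to 59.4% and 92.0 to 96.8%. Of these 5 of 7 fell in wild type and 0 of 7 in knockout, where 20.1% and 11.7% of all genes fell. For the difference between I/R effects 0 of these 7 passed. Summed endothelial markers stood at 94.1 to 98.3% and 116%. Of the 7 endothelial markers 1 rose and 2 fell in wild type and 1 rose in knockout. The part of these cell types in the Ace result was not tested. The genes nearest to Ace in profile were Pm20d1, a peptidase family gene, Slc37a4, the glucose-6-phosphate transporter gene, and Acox2, a peroxisomal oxidase gene, at 0.046, 0.058 and 0.074 against a median of 0.513. The antisense gene Gm11651 overlaps Ace but reached at most 0.0364 FPKM.

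**Figure D2:**
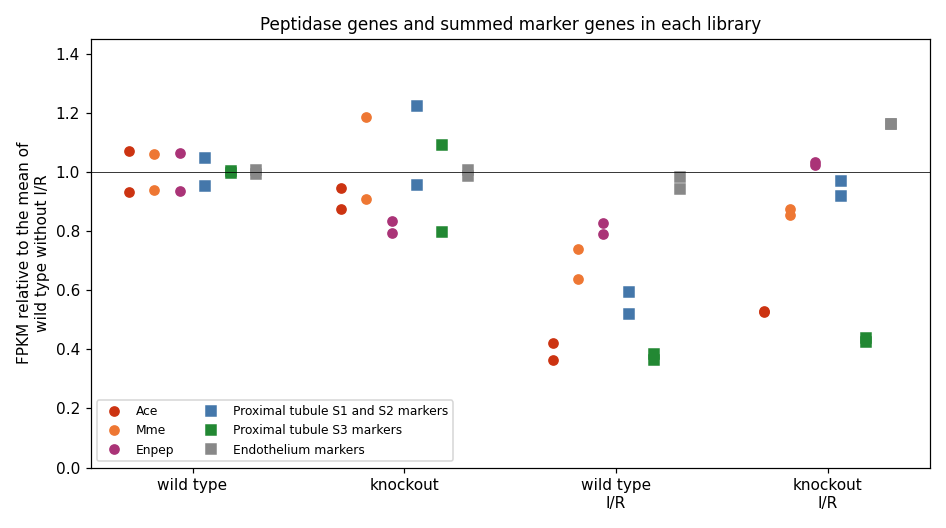
Level in each library relative to the mean of wild type without I/R, for Ace, Mme and Enpep (circles) and for the summed FPKM of markers of the proximal tubule segments and of endothelium (squares), 2 libraries per group. After I/R, Ace lay at 36.5 to 42.0% in wild type and near 53% in knockout, and the endothelial markers at 94.1% or more.

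Mme (ENSMUSG00000027820, chromosome 3 from 63241537 to 63386030, plus strand) encodes neprilysin, a metallopeptidase of the proximal brush border that also degrades natriuretic peptides. It was 13.8 and 12.3 FPKM in wild type, 15.4 and 11.8 in knockout, 8.29 and 9.63 in wild type after I/R and 11.4 and 11.1 in knockout after I/R. Each I/R library lay below each library of its own genotype without I/R. Mme fell by 0.50 ± 0.13 in wild type (adjusted p = 0.0255), and the knockout value of -0.24 ± 0.13 did not pass (adjusted p = 0.236). The difference between these effects was 0.25 ± 0.19 (95% interval -0.20 to 0.70, adjusted p = 0.541), so the genotypes were not shown to differ. The wild-type call was lost without wild-type replicate 1, wild-type replicate 2 or wild-type I/R replicate 1 (adjusted p = 0.121, 0.0558 and 0.129), with no filter on low values (0.0629) and on the equal-sum scale (0.168). Without knockout replicate 2 the knockout difference was -0.43 and passed (adjusted p = 0.0454). The nearest profiles were those of Ndufb5, Cldn10 and Ndufs4, at 0.039 to 0.050 against a median of 0.218.

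Enpep moved in opposite directions in the genotypes on the deposited scale, though the difference between its I/R effects did not pass. Enpep (ENSMUSG00000028024, chromosome 3 from 129269175 to 129332720, minus strand) encodes aminopeptidase A, which removes the first residue of angiotensin II. Its level was 45.1 and 51.3 FPKM in wild type and 38.1 and 39.8 in wild type after I/R, whereas it was 38.2 and 40.2 in knockout and 49.8 and 49.4 in knockout after I/R. The groups did not overlap within a genotype or within a treatment. Knockout kidneys without I/R and wild-type kidneys after it covered nearly the same range, and knockout kidneys after I/R lay between the wild-type replicates without it. Enpep fell by 0.30 ± 0.08 in wild type (adjusted p = 0.0269) and rose by 0.33 ± 0.08 in knockout (adjusted p = 0.0317). Of all tested genes 4.07% moved in opposite directions with no overlap, and 1.66% were lower in wild type and higher in knockout in this way. The difference between the I/R effects was 0.63 ± 0.115 (95% interval 0.36 to 0.90), which 7.95% of genes exceeded in size and which did not pass across all genes (adjusted p = 0.082).

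The Enpep differences are small and rest on few libraries. The wild-type call was lost without wild-type replicate 2 (adjusted p = 0.162), wild-type I/R replicate 1 or 2 (0.114 and 0.0663) and knockout I/R replicate 1 or 2 (0.0572 and 0.0571), and with only the groups compared in the fit (0.0579). The knockout call was lost without knockout replicate 1 (0.108) and knockout I/R replicate 1 or 2 (0.138 and 0.157). Keeping low genes in the fit (0.0555) or fitting only the groups compared (0.0631) also ended it. On the equal-sum scale, which moved the median of all genes by 0.26 in wild type and 0.22 in knockout, the difference in wild type was -0.0047 (adjusted p = 0.970) and that in knockout 0.58, so the fall in wild type depends on the scale, while the difference between effects was 0.59. Between genotypes, Enpep in knockout differed by -0.29 ± 0.08 without I/R (adjusted p = 0.431) and by 0.34 ± 0.08 after it (adjusted p = 0.0586), and neither passed. On recovered reads, limma-voom called the latter (adjusted p = 0.0317, settings from 0.0317 to 0.947) and the difference between I/R effects (adjusted p = 0.0460, settings from 0.0460 to 0.294). In both comparisons limma-voom also called more of all genes than limma did. Markers of S1 and S2 also differed between genotypes after I/R, with 4 of 7 higher in knockout, and their part in the Enpep values was not tested. The nearest profiles were those of Adamts6, Zfp3 and Pih1d2, at 0.057 to 0.067 against a median of 0.205. The processed pseudogene Gm42628 inside Enpep reached at most 0.371 FPKM.

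**Figure D3:**
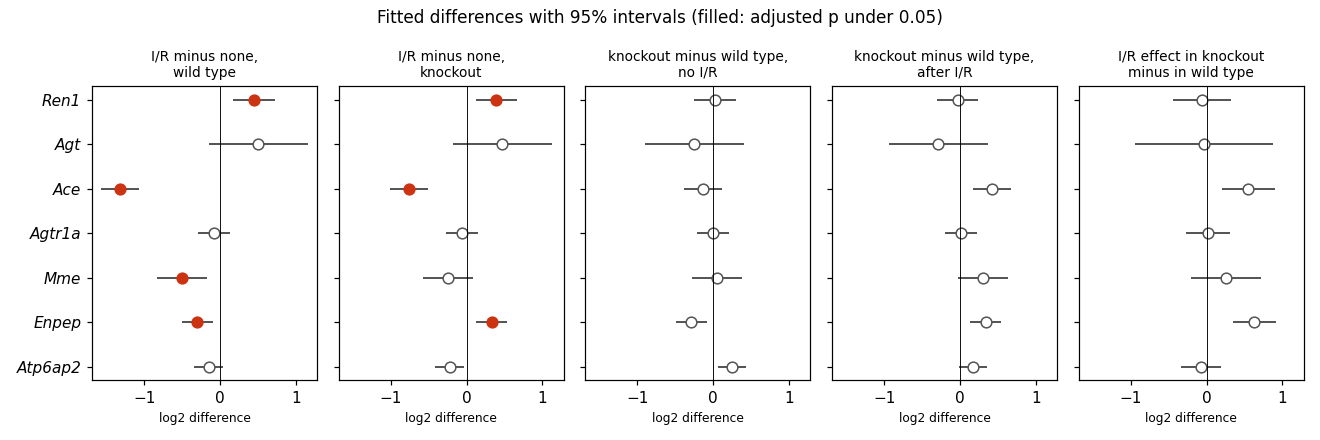
Fitted log2 differences of the 7 tested genes in the 5 comparisons, with 95% intervals from limma. Filled points passed at an adjusted p under 0.05. The interval of Enpep lies below 0 for I/R in wild type, above 0 for I/R in knockout and above 0 for the difference between them, the last not filled.

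Agtr1a, the main type 1 receptor gene of the kidney, was the steadiest of the 7. Agtr1a (ENSMUSG00000049115, chromosome 13 from 30336441 to 30382867, plus strand) stood at 13.7 and 14.1 FPKM in wild type, 13.4 and 14.4 in knockout, 13.5 and 12.8 in wild type after I/R and 14.2 and 12.5 in knockout after I/R. Only the 2 wild-type groups did not overlap. The I/R difference was -0.08 ± 0.08 in wild type (95% interval -0.27 to 0.12, adjusted p = 0.516) and -0.06 ± 0.08 in knockout (-0.26 to 0.14, adjusted p = 0.648). On the equal-sum scale both turned positive, at 0.20 and 0.18, and neither passed. The nearest profiles, of Oxa1l, Brf1 and Trpc4ap, were at 0.021 to 0.025 against a median of 0.143.

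Agtr1b, the second type 1 receptor gene of rodents, known mainly from the adrenal and pituitary, was barely detected. Agtr1b (ENSMUSG00000054988, chromosome 3 from 20314473 to 20367177, minus strand) had 4 reads in wild-type replicate 2, 2 in wild-type I/R replicate 2, 1 in knockout I/R replicate 2 and 0 in the other 5 libraries, where a count of 0 allows 0.0777 to 0.0967 FPKM (3 reads). The longest open reading frames of Agtr1a and Agtr1b, each of 1080 bases in GENCODE M21, were identical at 90.8% of bases, with a longest identical run of 66 bases. Reads may therefore be shared between them, and these few reads are uncertain. Among 6 adrenal cortex markers, Cyp11b2 was at 0 in every library and 4 others stayed below 1 FPKM.

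Mas1 (ENSMUSG00000068037, chromosome 17 from 12841079 to 12868143, minus strand), the receptor gene assigned to angiotensin 1-7, was low and is uncertain. It was 0.874 and 0.543 FPKM in wild type, 1.00 and 1.75 in knockout, 0.764 and 0.767 in wild type after I/R and 0.541 and 0.471 in knockout after I/R, from 22 to 75 reads per library. Knockout libraries were the highest without I/R and the lowest after it. It was tested only with no filter on low values, where the I/R difference was 0.05 ± 0.18 in wild type (adjusted p = 0.924) and -0.64 ± 0.18 in knockout (adjusted p = 0.111), and the difference between effects was -0.69 ± 0.26 (adjusted p = 0.397). Airn, an imprinted noncoding RNA gene on the opposite strand, overlaps Mas1 over 19058 bases and stood at 1.2 to 2.56 FPKM. Whether counting used strand is not stated, so reads of the pair cannot be told apart.

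Atp6ap2 (ENSMUSG00000031007, chromosome X from 12587801 to 12617049, plus strand) encodes the prorenin receptor, which is also an accessory subunit of the vacuolar proton pump. Its level was 43.5 and 48.0 FPKM in wild type, 54.5 and 54.4 in knockout, 40.6 and 41.5 in wild type after I/R and 47.4 and 45.4 in knockout after I/R. In each treatment both knockout libraries lay above both wild-type libraries, as for 7.37% of all tested genes. The knockout differences of 0.25 ± 0.07 without I/R (adjusted p = 0.444) and 0.17 ± 0.07 after it (adjusted p = 0.206) did not pass, nor did the additive model over both treatments (0.21 ± 0.06, adjusted p = 0.224), under which 0% of all genes passed. Kdm6a lies 5.55 Mb further along the same chromosome. With I/R the values were -0.15 ± 0.07 in wild type (adjusted p = 0.152) and -0.22 ± 0.07 in knockout (adjusted p = 0.0713). Over both genotypes Atp6ap2 fell by 0.19 ± 0.06 (adjusted p = 0.0305) on the deposited scale, whereas on the equal-sum scale the differences were 0.14 and 0.03 and did not pass. The nearest profiles were those of Ctnnbip1, Nqo2 and Hook1, at 0.027 to 0.038 against a median of 0.169.

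Without I/R the genotypes differed in no member past the threshold. Of 7 members 0 passed, with limma or limma-voom, against 0.00752% of all genes (1 gene), and the median difference of the 7 was 0.00 against 0.02 for all genes. At an unadjusted p under 0.05 there were 2, Enpep and Atp6ap2 (unadjusted p from limma), as were 9.27% of all genes. After I/R 0 of 7 passed with limma, against 6.01% of all genes. With limma-voom 2 passed (Ace and Enpep), where 1503 of all 13304 genes did. At an unadjusted limma p under 0.05 there were 3 (Ace, Enpep and Atp6ap2) against 24.2% of all genes. The median difference of the 7 was 0.17 against 0.01 for all genes.

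Other genes that make or cut angiotensins, or belong to their neighbourhood, were listed beside the members: 19 genes, of which 13 were tested. In wild type Ctsd and Dpp3 rose and Klk1 and Anpep fell with I/R (median -0.06). These were 2 and 2 of 13, where 17.4% of all genes rose and 20.1% fell. In knockout 0 of 13 passed with limma (median -0.11), against 20.7% of all genes. There 1 of 13, Ctsd, was under an unadjusted limma p of 0.05, against 35.8% of all genes. The kallikrein gene Klk1, whose product releases kinins, was 1836 and 1745 FPKM in wild type and 642 and 805 after I/R, and fell by 1.31 ± 0.12 (adjusted p = 3.94e-04). In knockout Klk1 went from 2194 and 2292 to 1823 and 1847 FPKM, which did not pass (-0.29 ± 0.12, adjusted p = 0.144), and after I/R it was higher in knockout than in wild type by 1.35 ± 0.12 (adjusted p = 0.00824). Klk1 has close relatives in the mouse genome, so its reads may be shared. Ctsd, the gene of the lysosomal aspartic protease cathepsin D, rose from 184 and 182 to 410 and 481 FPKM in wild type (1.28 ± 0.10, adjusted p = 1.98e-04) and after I/R was lower in knockout, at 266 and 267 FPKM (-0.74 ± 0.10, adjusted p = 0.0156). The tests of a difference between the I/R effects did not pass for either (adjusted p = 0.0748 and 0.0615). Injured tubule markers also differed between genotypes after I/R: their summed level was 2.91 to 4.37 FPKM in wild type, 3.78 to 4.21 in knockout, 365 to 378 in wild type after I/R and 131 to 137 in knockout after I/R. Of these 5 markers all rose with I/R in each genotype, and Havcr1, Lcn2, Krt20 and Sox9 (4 of 5) were lower in knockout after I/R. Summed macrophage markers were 46.9 to 84.8 FPKM in wild type, 52.4 to 58.2 in knockout, 231 to 273 in wild type after I/R and 176 to 194 in knockout after I/R. Of these 5 markers 4 rose with I/R in each genotype. The part of these cells and of the injury in the genotype differences after I/R, those of Ace and Enpep included, was not tested.

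Anpep, the aminopeptidase N gene, fell by 0.35 ± 0.11 in wild type (adjusted p = 0.0479). Agtr2, Cma1, Mcpt4, Cpa3, Ctsg and Mrgprd stayed below 1 FPKM in every library, and Mrgprd was listed at 0 throughout.

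**Figure D4:**
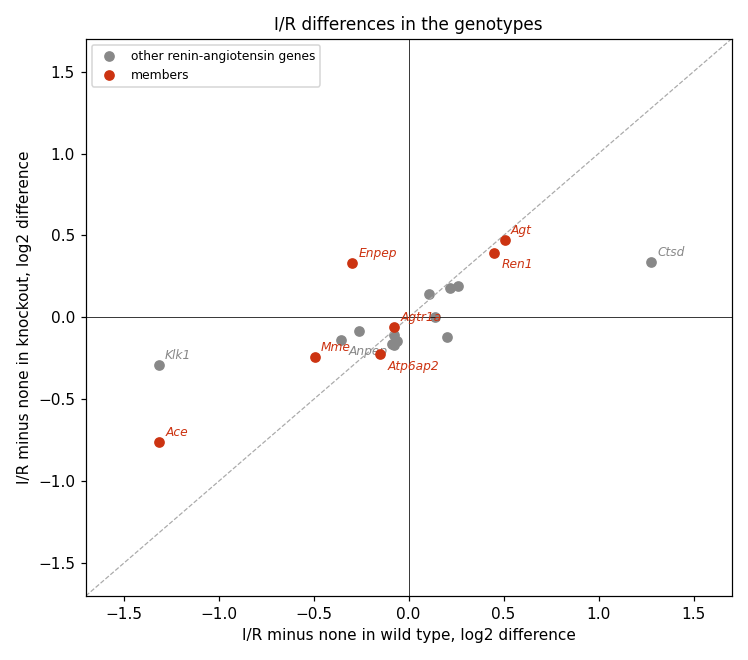
I/R log2 difference in wild type (horizontal) and in knockout (vertical) for the 7 tested members and 13 other genes of the system, which use separate libraries. The dashed line marks equal differences. Enpep lies left of and above 0 (-0.30 and 0.33), and Klk1 and Ctsd lie far from the line.

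Among other brush border peptidase genes, a list that also holds Anpep, 9 of 10 were tested. In wild type 5 fell and 0 rose with I/R (median -0.43), where 20.1% of all genes fell. In knockout 3 fell and 0 rose (median -0.10), where 11.7% of all genes fell. The meprin genes Mep1b and Mep1a fell by 2.25 and 1.36 in wild type and by 1.67 and 0.85 in knockout, and the gamma-glutamyltransferase gene Ggt1 by 0.88 and 0.85. Dpep1, a renal dipeptidase gene, fell by 0.55 ± 0.10 in wild type (adjusted p = 0.00507) and was -0.04 in knockout (adjusted p = 0.796). After I/R it was 0.76 ± 0.10 higher in knockout than in wild type (adjusted p = 0.0148). The difference between its I/R effects, 0.51 ± 0.14, did not pass (limma interaction, adjusted p = 0.150).

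Genes that mark or regulate renin cells and the macula densa went both ways. Of 14 listed 8 were tested. With I/R in wild type 2 rose and 2 fell (median -0.08), where 17.4% of all genes rose and 20.1% fell. In knockout 1 rose (median 0.05), where 8.95% of all genes did. These counts do not set the list apart from all genes. Ptges, the prostaglandin E synthase gene, rose by 0.33 ± 0.09 and 0.36 ± 0.09 (adjusted p = 0.0281 and 0.0341). In wild type Adrb1, the beta-1 adrenergic receptor gene through which nerves release renin, fell by 0.55 ± 0.14 (adjusted p = 0.0187), the adenylyl cyclase gene Adcy5 fell by 0.47 and the phosphodiesterase gene Pde3b rose by 0.36. Gja5, Nos1, Ptgs2 and Foxd1 stayed below 1 FPKM in every library and were not tested. At these low levels Ptgs2 was 0.0417 and 0.027 FPKM in wild type and 0.316 and 0.371 after I/R. In knockout Ptgs2 was 0.136 and 0.107 FPKM and 0.309 and 0.282 after I/R. Nos1 went the other way in wild type, from 0.160 and 0.144 to 0.0748 and 0.120 FPKM.

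Downstream, 10 aldosterone and corticosteroid response genes were all tested. In wild type 5 fell and 0 rose with I/R (median -0.41), where 20.1% of all genes fell. In knockout 3 fell and 0 rose (median -0.24), where 11.7% of all genes fell. Tsc22d3 fell by 1.00 and 1.03, Fkbp5 by 1.08 and 0.88 and Per1 by 0.60 and 0.62 in wild type and knockout, all targets shared by steroid receptors. Scnn1a, a subunit gene of the epithelial sodium channel, was 47.6 and 41.2 FPKM in wild type and 22.2 and 26.3 after I/R, and fell by 0.85 ± 0.11 (adjusted p = 0.00126). In knockout it was 41.9 and 46.1 FPKM and 36.8 and 36.9 after I/R, which did not pass (adjusted p = 0.152). After I/R it was higher in knockout than in wild type by 0.59 ± 0.11 (adjusted p = 0.0326). The difference between the I/R effects on Scnn1a, 0.60 ± 0.15, did not pass (limma interaction, adjusted p = 0.135). Without I/R, 0 genes of these 4 lists passed for knockout against wild type. Over all tested genes of the lists, the differences ran from -0.52 (Fkbp5, adjusted p = 0.552) to 0.33 (Klk1, adjusted p = 0.495).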

How the data were processed

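Poly-A RNA of 8 mouse kidney samples was sequenced. The authors deposited FPKM values per gene, and the tools named per the submitters' processing notes are featureCounts 1.5.0-p3 and DESeq2 1.20.0, with build GRCm39, whereas the gene coordinates in the deposited table are those of GRCm38 for all 9 members and the aligner is not stated. FPKM times gene length gave whole reads for 99.99% or more of values within 0.05 of a read. This set the size per library behind FPKM and the limit of 3 reads for a count of 0. Such limits cover counting error only.

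Of 54965 genes, the 13304 that averaged 1 FPKM or more entered the fit. It was made with limma 3.58.1 (R 4.3.3) on log2(FPKM + 1), as 4 group means with a mean-variance trend, and p-values (two-sided) were adjusted over all tested genes by Benjamini-Hochberg with a threshold of 0.05. Differences are on the log2(FPKM + 1) scale, which understates changes of low genes, and ± is the standard error. The difference between I/R effects is the interaction of genotype and I/R. The fit was also run on simulated data, and the outcome is not reported here. Alternatives were a pseudocount of 0.1, no filter, limma-voom on recovered reads, an equal FPKM sum, only the groups compared, a replicate block, each library left out and, added after the values were seen, an additive model. All 9 members were named, and from each list the called genes with the largest differences, up to 4 per comparison, or the 2 of highest level where 0 passed. Members and lists were chosen with earlier results of these data known. Some genes of these lists are not reported here.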

Additional observations from a re-analysis of the deposited data

Results flagged for a closer look

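Enpep stood out because both wild-type libraries after I/R were below both without it, while both knockout libraries after I/R were above both without it. The I/R effect in knockout minus that in wild type was 0.63 on the log2 scale, from a difference of -0.30 in wild type and 0.33 in knockout with 2 libraries per group. On the equal-sum scale the wild-type difference was -0.0047 (adjusted p = 0.970). The test of the difference did not pass across all genes (limma interaction, adjusted p = 0.082), and 4.07% of all tested genes moved in opposite directions in the genotypes with no overlap between groups.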

How the results depend on the processing

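The fall of Ace with I/R passed in both genotypes under all 15 alternatives, while the calls of Ren1, Mme and Enpep depended on single libraries and on settings of the fit, as given with each gene; 2 libraries per group limit every comparison. The planned count-model alternatives were not run, as the authors gave FPKM and no counts. Reads recovered from FPKM were used with limma-voom only. Samples with the same replicate number shared little deviation across genes (correlations of deviations from -0.0827 to 0.161). This does not settle whether they came from the same animal. With the replicate block, Ren1 in knockout lost its call (adjusted p = 0.0725), and 4726, 2412, 1, 461 and 9 genes passed for I/R in wild type, I/R in knockout, knockout without I/R, knockout after I/R and the interaction, where 4992, 2748, 1, 800 and 38 passed in the fit reported.

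For I/R in knockout, 1790 genes and 1 member passed with no filter, 1556 and 1 with only the groups compared, and 5392 genes in the additive model. For knockout without I/R, 2 genes passed with a pseudocount of 0.1, 10 with no filter, and 0 with limma-voom, with only the groups compared and in the additive model. For knockout after I/R, 305 passed with no filter, 1503 genes and 2 members with limma-voom, and 0 genes in the additive model. For the interaction, 14 genes passed with a pseudocount of 0.1, 175 and 1 member with limma-voom, and 61 with an equal FPKM sum. Leaving out each library gave 3181 to 5453 genes and 1 to 4 members for I/R in wild type, 583 to 3305 and 1 to 4 for I/R in knockout, 1 to 6 genes and 0 to 0 members without I/R, 8 to 1262 and 0 to 0 after it, and 0 to 206 and 0 to 0 for the interaction. The causes were not tested.

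On the equal-sum scale the share of calls that were higher went from 46.5% to 79.5% for I/R in wild type, from 43.3% to 84.4% in knockout and from 46.4% to 20.1% for knockout after I/R. There Atp6ap2 turned to 0.14 and 0.029 and Agtr1a to 0.20 and 0.18 with I/R in wild type and knockout, without I/R Ren1 turned to -0.037, Agtr1a to -0.063 and Mme to -0.013, and Agtr1a turned to -0.085 after I/R and -0.022 in the interaction. In the additive model Enpep turned to 0.017 for I/R and 0.026 for knockout, Ace to 0.14 and Ren1 to -0.0022. With 1 library left out, the sign changed within -0.14 to 0.025 for Agtr1a and I/R in knockout. For knockout without I/R it changed within -0.080 to 0.13 for Ren1, -0.046 to 0.048 for Agtr1a, -0.13 to 0.23 for Mme and -0.60 to 0.10 for Agt. After I/R it changed within -0.60 to 0.032 for Agt, -0.16 to 0.094 for Ren1 and -0.066 to 0.10 for Agtr1a, and in the interaction within -0.39 to 0.32, -0.18 to 0.067 and -0.067 to 0.10 for these. None of these values passed the test.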
